A study of Mus musculus with 10 samples.

Results

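The genes described here are 7 that handle or sense nucleotides outside cells: the ectonucleotidases Entpd1, Entpd2 and Nt5e, the nucleotide receptors P2ry1, P2rx4 and P2rx7, and the adenosine receptor Adora1. They were chosen by symbol with the genotype differences in probe signal on these same arrays already known, and every array probe annotated to one of the 7 symbols was then taken. This gave 13 of the 45281 probes on the array. Their genotype differences are therefore given as a description, with SE and no p-value. Of the 7 genes, 6 had a probe. Adora1 had none annotated to it and is not analysed here. The 13 probes were 2 for Entpd1, 1 for Entpd2, 2 for Nt5e, 1 for P2ry1, 2 for P2rx4 and 5 for P2rx7.

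The RNA came from the subventricular zone (SVZ), the adult germinal layer beside the lateral ventricle, cut out by laser from BL6 mice aged 8 weeks. All 9 mice, controls included, had been given a stroke by ischemia of the striatum on 1 side. There were 4 mice with the genotype Tlx overexpressing and 5 with the genotype wild type. Tlx is the nuclear receptor encoded by Nr2e1, which maintains neural stem cells. The labels do not give the promoter behind the overexpression, the hemisphere captured or the time since the stroke. The Tlx overexpressing mice are called 2995, 3155, 3157 and 3163 in the labels, and the wild type mice are c1, c2, 2989, 2996 and 3164. Mouse c1 was run on 2 arrays, whose values were averaged.

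ATP leaks or is released from injured cells and acts on P2X receptors, which are ion channels, and on P2Y receptors, which couple to G proteins. Ectonucleotidases end and redirect this signal: Entpd1 (CD39) takes ATP down to AMP, Entpd2 mainly removes 1 phosphate and lets ADP build up, and Nt5e (CD73) turns AMP into adenosine. In the adult SVZ, Entpd2 is known from the glia-like stem cells. In the brain Entpd1 and P2rx7 are known from microglia, and Entpd1 also from vessels.

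The upstream sequences of Entpd2, Nt5e and P2ry1 are shown because these 3 genes, each detected in every mouse, stand for 3 steps of the pathway, the step from ATP to ADP, the step from AMP to adenosine and the sensing of ADP. Each is the 250 bases before the RefSeq start of build GRCm38.p6, on the plus strand, and capitals mark matches to GGGCGG (the GC box) or TGANTCA (the AP-1 site) on either strand. Entpd2 lies at chr2:25395624-25395873, Nt5e at chr9:88327359-88327608 and P2ry1 at chr3:61002535-61002784.
Entpd2: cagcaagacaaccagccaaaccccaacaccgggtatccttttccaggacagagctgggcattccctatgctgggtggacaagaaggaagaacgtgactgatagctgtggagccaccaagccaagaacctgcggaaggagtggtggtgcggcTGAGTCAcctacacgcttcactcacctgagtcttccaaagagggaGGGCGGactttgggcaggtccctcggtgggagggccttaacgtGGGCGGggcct
Nt5e: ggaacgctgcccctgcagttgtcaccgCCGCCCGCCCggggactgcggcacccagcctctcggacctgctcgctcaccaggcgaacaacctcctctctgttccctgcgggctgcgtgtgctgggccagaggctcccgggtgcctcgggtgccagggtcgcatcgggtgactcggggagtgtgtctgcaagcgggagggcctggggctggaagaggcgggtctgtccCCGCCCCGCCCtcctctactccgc
P2ry1: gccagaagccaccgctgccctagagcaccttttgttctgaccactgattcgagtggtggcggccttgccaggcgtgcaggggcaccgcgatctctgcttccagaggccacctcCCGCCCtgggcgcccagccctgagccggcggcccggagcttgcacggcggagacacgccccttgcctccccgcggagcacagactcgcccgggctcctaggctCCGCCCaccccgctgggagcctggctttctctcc

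The Entpd2 window held 2 GC boxes, 54 and 11 bases before the start, and 1 AP-1 match 99 bases before it. A GC box was found in 32.7% and an AP-1 match in 6.75% of all 32851 windows of this length. The half-site AAGTCA, to which Tlx binds, was searched for on both strands too. None of the 10 windows of the 7 genes held it, and 13.1% of all windows did. With so few windows nothing is read from this. The windows of Nt5e and P2ry1 held 4 and 2 GC box matches, those of Nt5e in overlapping pairs, and no AP-1 match.

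In the SVZ of these mice 4 of the 7 genes gave signal above background, and of these Entpd2 alone separated the genotypes. Entpd2 was 1.59-fold higher in the Tlx overexpressing mice. Nt5e, P2ry1 and P2rx4 were measured in both genotypes with groups that overlapped. Entpd1 and P2rx7 were not well above background with any of their 7 probes, which does not show that their RNA was absent.

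Detection was judged by the deposited detection p-value, which was taken as the share of negative control beads at least as bright as the probe. A probe counted as detected in a mouse when this p was under 0.05. The probes of Entpd2 and P2ry1, both probes of P2rx4 and the brighter Nt5e probe had a detection p of 0 in all 9 mice. The dimmer Nt5e probe was detected in 7 of 9 mice, 3 Tlx overexpressing and 4 wild type, and missed the limit in mice 3155 (0.0588) and c2 (0.185).

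The 2 Entpd1 probes were detected in 0 of 9 mice, with detection p from 0.507 to 1. They read 4.18 and 4.11 on the log2 scale in the Tlx overexpressing mice and 4.18 and 4.11 in the wild type mice, near the lowest value the background correction allows. Of the 5 P2rx7 probes, 3 were detected in no mouse. ILMN_2620381 was detected in wild type mouse 3164 (0.0353) and ILMN_3162824 in wild type mouse c2 (0.0256), 1 mouse of 9 each. These 7 probes did not enter the fit, which took probes detected in at least 4 of 9 mice. P2rx7 and P2rx4 are near neighbours on the same chromosome, yet both P2rx4 probes were detected in every mouse.

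**Figure D1:**
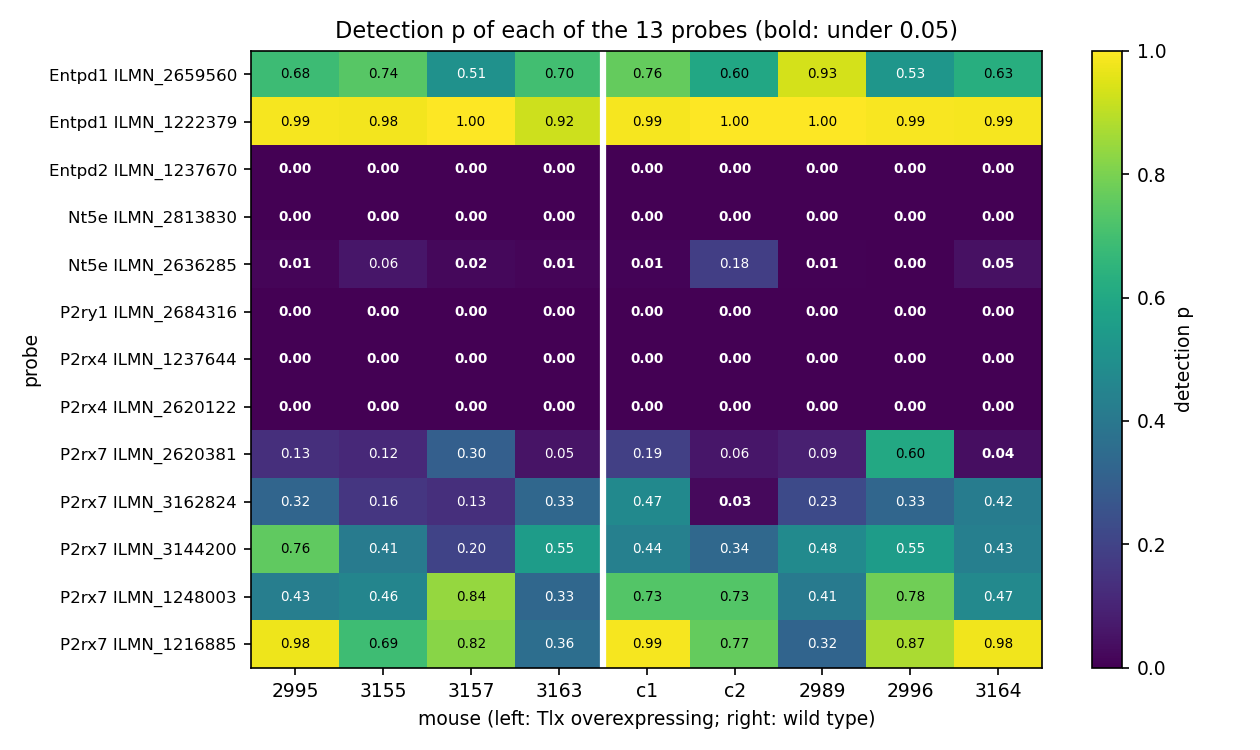
Detection p of the 13 probes (rows) in each of 9 mice (columns, Tlx overexpressing left of the white line and wild type right of it), coloured from 0 to 1, with values under 0.05 in bold. The rows of Entpd2, P2ry1, P2rx4 and the first Nt5e probe are at 0 throughout, and those of Entpd1 and P2rx7 lie above 0.05 but for 2 cells.

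Entpd2, the ectonucleotidase that makes ADP from ATP, was measured by 1 probe, ILMN_1237670. Its log2 signal was 8.70 in mouse 2995, 8.88 in 3155, 8.88 in 3157 and 8.94 in 3163, the 4 Tlx overexpressing mice. In the wild type mice it was 8.16 in c1, 8.31 in c2, 8.05 in 2989, 8.02 in 2996 and 8.36 in 3164. Every Tlx overexpressing mouse lay above every wild type mouse, so the groups did not overlap. The means were 8.85 ± 0.10 (SD, n = 4) and 8.18 ± 0.15 (SD, n = 5), a difference of 0.67 on the log2 scale (SE 0.09). Before normalization between arrays the same separation stood in the deposited intensities, 423 to 533 against 269 to 356 units of brightness.

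This was the 1 of 6 tested probes of these genes that passed the threshold of the fit over the whole array (limma adjusted p under 0.05), where 192 of 20401 tested probes (0.941%) did so. It was also the 1 of the 6 that separated the genotypes, as 6.28% of all tested probes did. Since the gene was chosen with this comparison known, nothing is read from these counts.

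The labels' mouse numbers fall into 3 ranges whose meaning they do not give, 2989 to 2996, 3155 to 3164, and c1 with c2. Entpd2 was higher by 0.67 in the Tlx overexpressing mouse of the first range than in its 2 wild type mice, and by 0.54 in the 3 Tlx overexpressing mice of the second than in its 1 wild type mouse. The third range holds only wild type mice. The 2 arrays of mouse c1 read 8.18 and 8.14, a gap of 0.04, and 19% of all tested probes had a smaller gap.

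**Figure D2:**
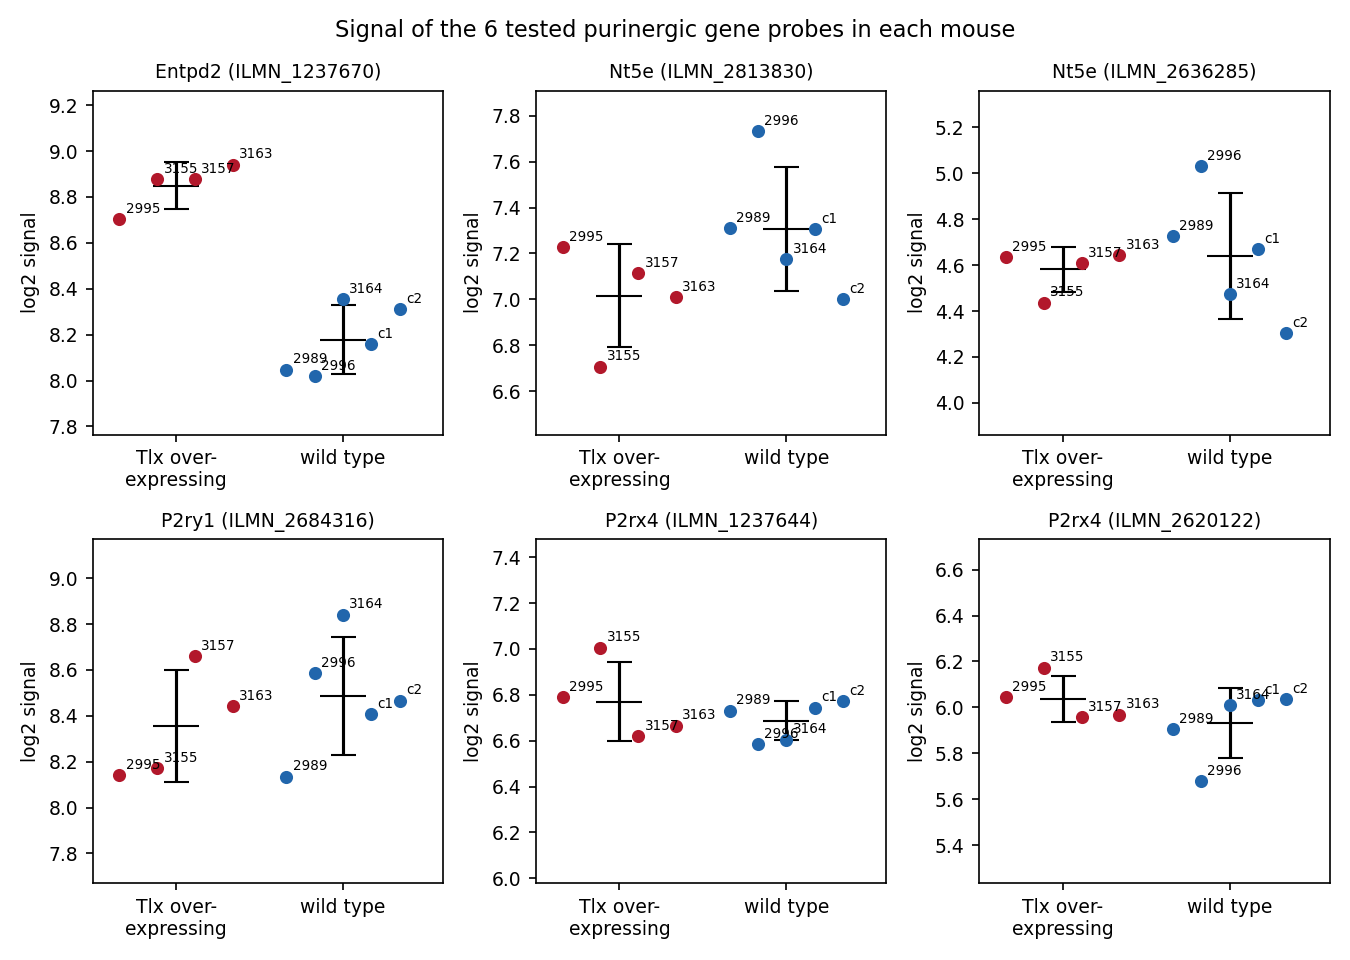
Log2 signal (y axis, each panel 1.5 units high) of the 6 tested probes in each mouse (points, labelled with the mouse), with group mean and SD as bars, for 4 Tlx overexpressing (red) and 5 wild type mice (blue). The 4 Tlx overexpressing mice lie at 8.70 to 8.94 for Entpd2, above the wild type mice at 8.02 to 8.36, and the groups overlap for the other 5 probes.

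The tested markers of SVZ progenitors and neuroblasts, the cells that define the labelled tissue, were, like Entpd2, higher in the Tlx overexpressing mice. Of 8 listed genes 7 were tested, all 7 were higher in the Tlx overexpressing mice and 2 passed the threshold, Egfr and Dcx. The level of this list, the mean of its genes' log2 signals after each was centred over the 9 mice, was 0.06 to 0.35 in the Tlx overexpressing mice and -0.30 to 0.07 in the wild type mice. Within genotypes, after each group's mean was subtracted, Entpd2 and this level had Pearson's r = 0.69 (n = 9, exact two-sided permutation p = 0.0448, adjusted p = 0.45 over 40 relations) and Spearman's rho = 0.75 (exact permutation p = 0.0313, adjusted p = 0.56), and r = 0.70 without the 2 farthest mice. This list had the highest r with Entpd2 of the 10 lists, and the relation did not pass after adjustment. The part of these cells in the Entpd2 difference was not tested. In tissue of mixed cells such as this, more cells of a type and more RNA per cell cannot be told apart. Of the 8 astrocyte markers 7 were tested, with 3 of 7 higher and 4 lower, 0 past the threshold, and levels of -0.04 to -0.01 against -0.07 to 0.19.

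Nt5e, which makes adenosine from AMP at the cell surface, was measured by 2 probes. The brighter, ILMN_2813830, read 7.23, 6.71, 7.11 and 7.01 in Tlx overexpressing mice 2995, 3155, 3157 and 3163. In wild type mice c1, c2, 2989, 2996 and 3164 it read 7.31, 7.001, 7.31, 7.73 and 7.18. Mouse 3155 was the lowest and mouse 2996 the highest, and the groups overlapped. The means were 7.02 ± 0.22 (SD, n = 4) and 7.31 ± 0.27 (SD, n = 5), a difference of -0.29 (SE 0.14), and it was -0.29 and -0.23 within the ranges 2989 to 2996 and 3155 to 3164.

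The dimmer Nt5e probe, ILMN_2636285, ran from 4.44 to 4.64 in the Tlx overexpressing mice and from 4.31 to 5.03 in the wild type mice. Its difference was -0.06 (SE 0.13), and it was 0.04 without wild type mouse 2996, the highest on this probe too. After the genotype means were subtracted the 2 Nt5e probes ran together over the 9 mice with r = 0.91, given as a description. Choroid plexus genes were lower in the Tlx overexpressing mice (10 of 10 tested of 12 listed, 2 past the threshold, levels of -1.03 to 0.16 against 0.07 to 0.66), and mouse 3155, the lowest for Nt5e, was the lowest for them. Within genotypes Nt5e and that level had r = 0.42 (n = 9, exact two-sided permutation p = 0.26, adjusted p = 0.80) and rho = 0.30 (exact permutation p = 0.49, adjusted p = 0.996). Without the 2 farthest mice, 2995 and 3155, r was -0.18, so that relation rested on those mice. Choroid plexus was not the list with the highest r for Nt5e, which was endothelial cells. That relation had r = 0.53 (exact permutation p = 0.17, adjusted p = 0.80) and rho = 0.63 (exact permutation p = 0.11, adjusted p = 0.73). Without the 2 farthest mice, 3155 and 3164, r was 0.16. The strongest relation of Nt5e among the 10 lists was a negative one, with SVZ progenitors and neuroblasts. It had r = -0.71 (exact permutation p = 0.069, adjusted p = 0.46) and rho = -0.68 (exact permutation p = 0.079, adjusted p = 0.71), and did not pass. Without the 2 farthest mice, c2 and 3157, r was -0.88.

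P2ry1, the receptor for ADP, had 1 probe, ILMN_2684316. Its log2 signal was 8.14, 8.17, 8.66 and 8.44 in Tlx overexpressing mice 2995, 3155, 3157 and 3163. In wild type mice c1, c2, 2989, 2996 and 3164 it was 8.41, 8.47, 8.14, 8.58 and 8.84. The lowest and the highest mouse were both wild type, and the 2 genotypes overlapped over most of their range. The means of 8.35 ± 0.24 (SD, n = 4) and 8.49 ± 0.26 (SD, n = 5) gave a difference of -0.13 (SE 0.14). It was -0.22 within the range 2989 to 2996 and -0.42 within 3155 to 3164, and -0.32 (SE 0.15) when mouse-number range was a block. The 2 arrays of c1 differed by 0.02, where the median gap over all tested probes was 0.11 and the 95th percentile 0.34.

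P2ry1 is set beside the genes of striatal projection neurons, the list with which it had its highest correlation of the 10, chosen after the values were seen. That list held 7 tested genes of 8, of which 1 was higher and 6 were lower in the Tlx overexpressing mice and 0 passed the threshold. Its level was lowest in mouse 2989 (-0.19) and highest in mouse 3164 (0.22), the same mice that were lowest and highest for P2ry1. Within genotypes the relation had r = 0.89 (n = 9, exact two-sided permutation p = 0.00625) and rho = 0.97 (exact permutation p = 0.00174), which adjusted over the 40 relations of 4 genes with 10 lists came to 0.25 and 0.069 and did not pass. It was r = 0.85 without the 2 farthest mice, 2989 and 3155. The ranges of the mouse number hold 2 to 4 mice, too few for a correlation within each. None of the 40 relations passed after adjustment, by either measure.

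**Figure D3:**
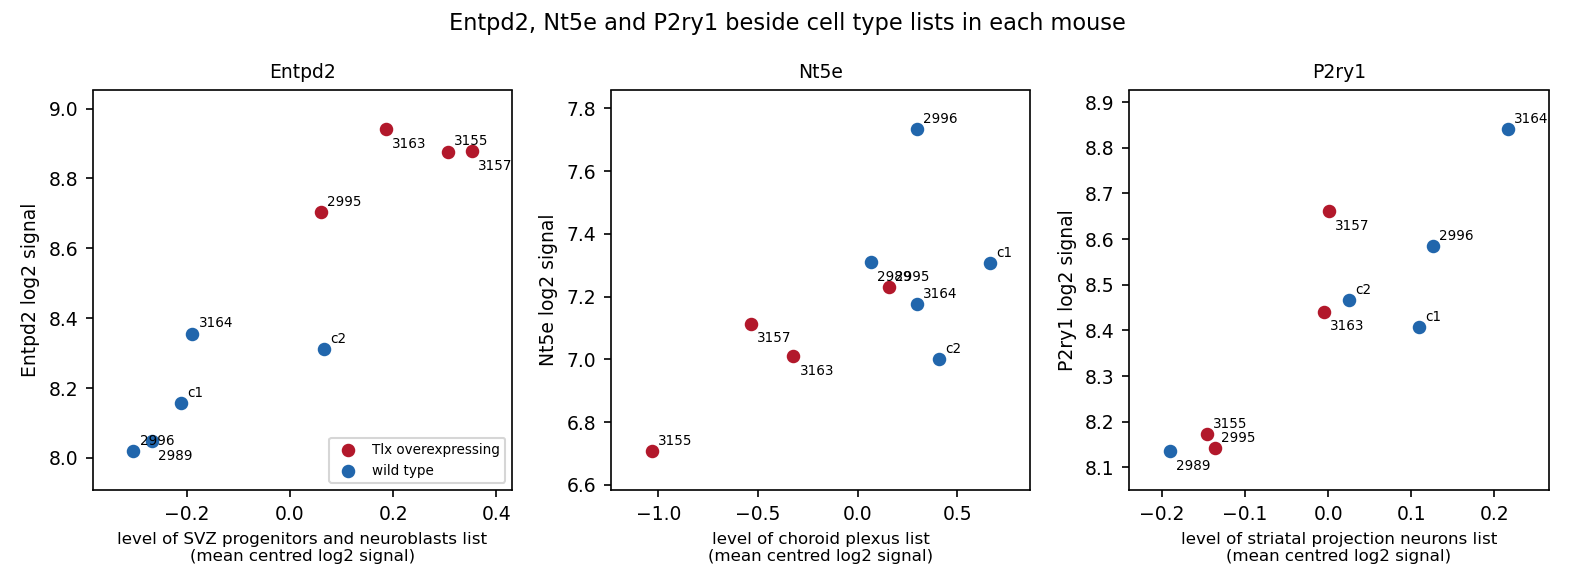
Log2 signal (y axes) of Entpd2, Nt5e and P2ry1 against the level of a list of cell type genes (x axes, mean centred log2 signal) in each of 4 Tlx overexpressing (red) and 5 wild type mice (blue). Mouse 2989 is lowest and mouse 3164 highest for both P2ry1 and the striatal list, while for Entpd2 the 4 Tlx overexpressing mice all lie above the wild type mice.

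P2rx4, an ATP-gated channel of neurons and microglia, had 2 probes with small positive differences. ILMN_1237644 read 6.79, 7.01, 6.62 and 6.67 in Tlx overexpressing mice 2995, 3155, 3157 and 3163. In wild type mice c1, c2, 2989, 2996 and 3164 it read 6.74, 6.77, 6.73, 6.59 and 6.60. Mouse 3155 stood highest and the rest of both groups overlapped. The difference was 0.08 (SE 0.09) from means of 6.77 ± 0.17 (SD, n = 4) and 6.69 ± 0.09 (SD, n = 5), 0.00 without mouse 3155 and 0.15 when mouse-number range was a block.

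The other P2rx4 probe, ILMN_2620122, ran from 5.96 to 6.17 against 5.68 to 6.03, a difference of 0.10 (SE 0.09). Mouse 3155 was highest and wild type mouse 2996 lowest on both P2rx4 probes, and within genotypes the probes ran together with r = 0.70. The 2 arrays of c1 differed by 0.46 on the first probe, more than 98.9% of all tested probes did, and by 0.25 on the second. Both gaps of this 1 mouse were larger than the genotype difference of their probe.

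The genes whose signals were most like these over the 9 mice, after genotype means were subtracted, are given by Pearson's r as a description among 11375 other named genes. They were Rfx3, Tug1 and Irf2bp1 for Entpd2 (0.98 each). For Nt5e they were Esd, Nr1i3 and Psmc3 (0.97, 0.97 and 0.96). For P2ry1 they were Ska2, Zfp3 and Rgs20 (0.94, 0.93 and 0.93). For P2rx4 they were Tnfsf13b, Cdkn2a and Sars (0.95, 0.95 and 0.93). Genes above 0.9 numbered 51 for Entpd2, 37 for Nt5e, 11 for P2ry1 and 6 for P2rx4. With 9 mice nothing is read from these counts.

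Of 43 other genes of purinergic signalling 38 had a probe and 19 a tested one. None of the 19 passed the threshold in the fit over the array in either direction, on its brightest probe, by limma, as 1.13% of all named genes did. An unadjusted p under 0.05 was found for 8 of the 19, and for 18.2% of all named genes, and no test was made of that count. Over all tested probes, counted by probe and not by gene, the genotypes did not overlap for 6.28%. Among the 19 genes they did not overlap for 2. These were P2ry14, at 7.102 to 7.455 in the Tlx overexpressing mice against 6.979 to 7.097, and Slc29a2, at 4.31 to 4.58 against 4.63 to 4.83. The median log2 difference of the 19 was -0.03 and that of all 11376 tested named genes was 0.00, with 7 higher and 12 lower among the 19. Without Tlx overexpressing mouse 2995, 3 of the 19 passed: P2rx5, P2ry13 and Slc29a4.

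Of 7 other P2Y receptors 3 had a tested probe, P2ry6, P2ry13 and P2ry14. Their differences were positive and none passed the threshold. P2ry13, a receptor for ADP on microglia, had 7.92 ± 0.17 (SD, n = 4) against 7.56 ± 0.12 (SD, n = 5), a difference of 0.36 (SE 0.10, limma adjusted p = 0.090), 0.43 (adjusted p = 0.033) without mouse 2995 and 0.25 (adjusted p = 0.37) when mouse-number range was a block. Its Tlx overexpressing mice ran from 7.70 to 8.08 and its wild type mice from 7.43 to 7.70, with mice 2995 and 3164 level. P2ry14, the receptor for UDP-glucose, differed by 0.29 (SE 0.09, adjusted p = 0.11) and by 0.13 on a dimmer probe. P2ry6, the receptor for UDP, differed by 0.29 (SE 0.10, adjusted p = 0.17). P2ry14, P2ry6 and, below, Slc29a4 are named after their values were seen. P2ry2, P2ry4, P2ry10 and P2ry12, the last an ADP receptor that marks resting microglia, had no probe past the filter. Beside these, 7 of the 9 tested microglia markers of 10 listed were higher, 0 passed the threshold, and the list's level was 0.04 to 0.18 against -0.19 to 0.16. The part of microglia in these values was not tested.

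Among the other P2X receptors P2rx5 read 5.27, 4.63, 4.52 and 4.63 in Tlx overexpressing mice 2995, 3155, 3157 and 3163 and 5.00 to 5.20 in the wild type mice. It differed by -0.34 (SE 0.13, limma adjusted p = 0.21), by -0.51 (adjusted p = 0.011) without mouse 2995, the only Tlx overexpressing mouse not below all wild type mice, and by -0.18 (adjusted p = 0.63) when mouse-number range was a block. With a normexp offset of 50 it was -0.15 (adjusted p = 0.29). Among the other nucleotide-cleaving enzymes 1 of 8 tested was higher and 7 were lower, where 50.3% of all tested named genes were higher. None of the 8 passed the threshold. Entpd4 (-0.004), Nt5c3 (-0.02) and Entpd5 (-0.04) were lower by less than their SE, so nothing is read from the signs. Alpl, tissue-nonspecific alkaline phosphatase, ran from 6.23 to 7.44 against 6.96 to 8.00, a difference of -0.59 (SE 0.23, adjusted p = 0.21) that was -0.10 when mouse-number range was a block.

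Of the adenosine enzymes and transporters 2 of 5 were higher and 3 lower. The nucleoside transporter Slc29a2, near background and detected in 7 of 9 mice, differed by -0.26 (SE 0.09, limma adjusted p = 0.14). Slc29a4, a transporter of adenosine and monoamines, differed by -0.60 (SE 0.22, adjusted p = 0.18), by -0.80 (adjusted p = 0.045) without mouse 2995 and by -0.34 (adjusted p = 0.61) when mouse-number range was a block. Mouse 3155 was the lowest both for Alpl and for the choroid plexus list given above, whose genes were lower with these 2 genes, and the part of that tissue was not tested. Panx1, a channel that releases ATP, differed by 0.11 (SE 0.10, adjusted p = 0.59) and by -0.03 when mouse-number range was a block. The other adenosine receptors had no tested probe.

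**Figure D4:**
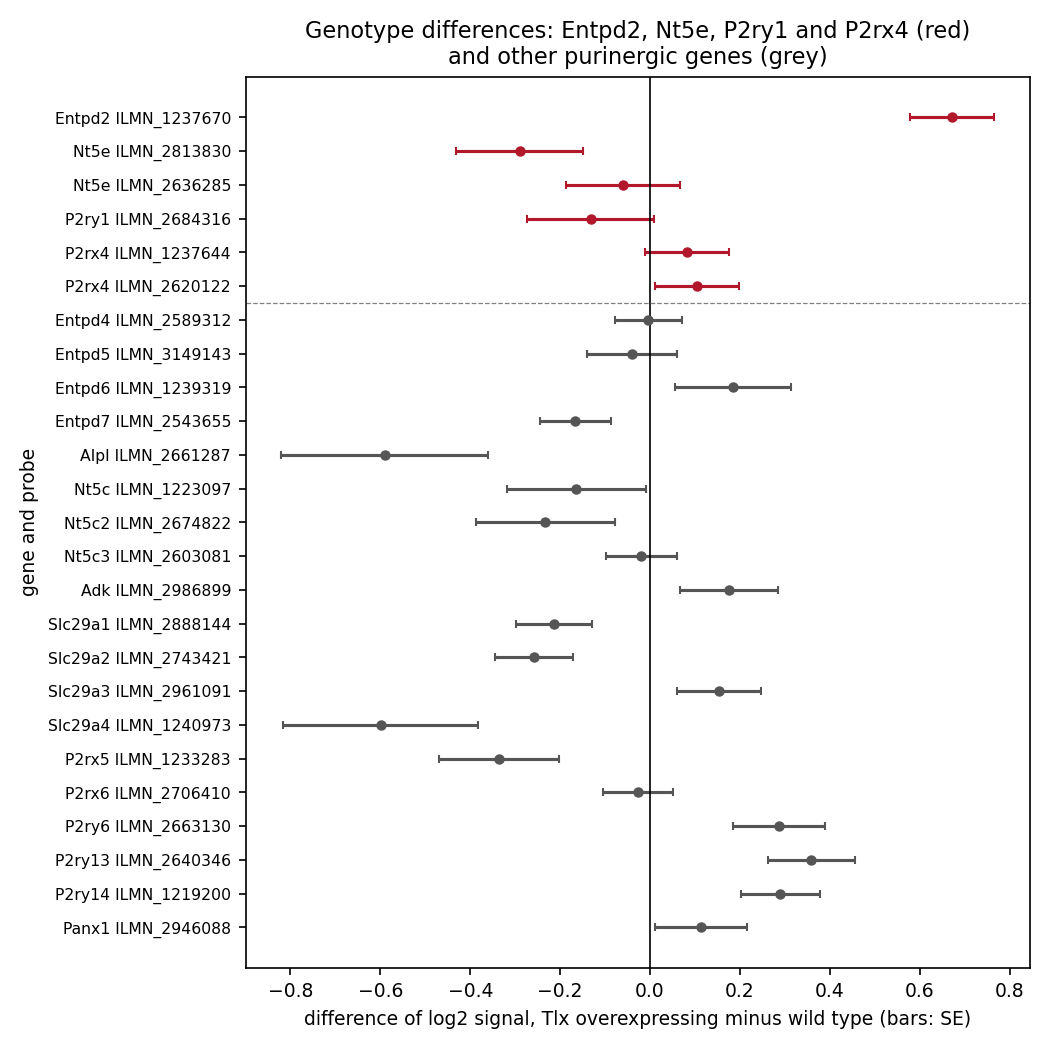
Difference of mean log2 signal, Tlx overexpressing minus wild type (x axis, bars SE), for the 6 tested probes of Entpd2, Nt5e, P2ry1 and P2rx4 (red) and the brightest tested probe of 19 other purinergic genes (grey). Entpd2 stands at 0.67, the 3 other tested P2Y receptors at 0.29 to 0.36, and Alpl and Slc29a4 near -0.60.

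Between 44.3% and 45.5% of probes were detected on each array, and the 2 arrays of c1 correlated with r = 0.996 over the tested probes. Nr2e1 itself had 1 dim probe, detected in all 9 mice, with 5.43 ± 0.14 (SD, n = 4) against 5.01 ± 0.19 (SD, n = 5). Every Tlx overexpressing mouse lay above every wild type mouse on it, and 6.28% of all tested probes separated the genotypes. The difference was 0.41 (SE 0.11, limma adjusted p = 0.084), and 0.28 (adjusted p = 0.39) when mouse-number range was a block. The probe need not measure the transgene. Of the probes called over the array 110 had a positive and 82 a negative difference, and their number ran from 26 to 758 when 1 mouse was left out. Precision is limited throughout by how few mice there were, 4 and 5.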

How the data were processed

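Biotinylated cRNA from SVZ of 9 mice was hybridised to 10 Illumina arrays. The authors deposited 2 tables of linear probe intensity. From the values, the table named non-normalized was already quantile-normalized between arrays, and the other held signals before that step, which were used here. The detection p-value was deposited beside the intensities, per the file headers. How the authors treated background is unknown here. The neqc function of limma 3.58.1 (R 4.3.3) applied normexp background correction, with negative controls inferred from detection p and an offset of 16, then quantile normalization and log2. A signal is a relative brightness, so levels of different probes cannot be compared. The size of a difference of a dim probe depends on the correction and its offset. For Slc29a2 it was -0.26 here, -0.15 with no background correction and -0.11 with an offset of 50.

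Mouse c1 counted as detected where both its arrays did. Probes detected in at least 4 of 9 mice (20401) were compared between genotypes with lmFit and eBayes (two-sided), and p-values were Benjamini-Hochberg adjusted over these probes. The labels number each mouse separately, so mice were taken as separate animals. Symbols came from the platform's annotation, updated through RefSeq. The 7 genes and all lists were chosen with earlier results of these data known. Named beyond the 7 genes were the pathway genes past the threshold, the one with the smallest p in each role, and the 3 genes most like each detected gene, with exceptions stated. Correlations with 10 marker lists were tested by exact permutation within genotypes (2880 orders). Marker lists whose genotype differences are not given above were ependymal cells (4 of 4 tested genes lower, 0 past the threshold) and neurons (3 of 4 higher, 0). The others were endothelial cells (3 of 7 higher, 0), oligodendrocytes (4 of 5 higher, 0) and meningeal fibroblasts (5 of 5 lower, 0). The fit was tested on simulated data. Upstream sequences are from RefSeq (GRCm38.p6), and all 7 genes matched. Alternatives were the authors' normalized table, other background corrections and filters, array weights, the mouse-number range as a block, each c1 array alone and leaving out each mouse.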

Additional observations from a re-analysis of the deposited data

Results flagged for a closer look

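Within the 4 Tlx overexpressing mice, 2 values stood far from the other 3, by Dixon's test among 24 groups, where chance gives about 1 in 20. The dimmer Nt5e probe read 4.44 in mouse 3155, below 4.61 to 4.64 in the other mice, at a level where that mouse missed the detection limit. P2rx5 read 5.27 in mouse 2995, above 4.52 to 4.63 in the others and above the wild type mice at 5.00 to 5.20.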

How the results depend on the processing

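Entpd2 kept its direction and stayed past the threshold in each of 18 alternatives, with log2 differences of 0.60 to 0.72. It was the 1 probe of the 7 genes past it in each. Its limma adjusted p ran from 0.0031 with array weights to 0.0494, just under the threshold, without mouse 3157. The gene was chosen with this comparison known, so nothing is read from how often it passed. The other 5 tested probes passed in no alternative that gave a value. The brighter Nt5e probe ran from -0.37 to -0.18 and P2ry1 from -0.32, when mouse-number range was a block, to -0.04. The number of probes called over the array, 192, was 122 with an offset of 50, 56 with no filter on dim probes, 51 when mouse-number range was a block and 609 with array weights. It was 758 without mouse 2995, 71 without 3155, 26 without 3157, 39 without 3163, 63 without c1, 84 without 2996 and 123 without 3164. The number of other purinergic genes past the threshold was 0 to 3 when 1 mouse was left out, with 3 only without mouse 2995, and 0 in all other alternatives. Panx1 turned to -0.028 (limma adjusted p = 0.932) when mouse-number range was a block. Nr2e1 was 0.47 (limma adjusted p = 0.035) with array weights, 0.28 (adjusted p = 0.39) with the block and 0.21 (adjusted p = 0.11) with an offset of 50. Slc29a2 was -0.11 (adjusted p = 0.25) with an offset of 50. The causes were not tested. No paired analysis was possible because replicate numbers here only name mice and pair none across genotypes. Depth does not apply to arrays, and signal near background limits Entpd1, P2rx7, the dimmer Nt5e probe and Slc29a2.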

Other observations

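The 2 tested probes of Slc29a1, an equilibrative transporter of adenosine, had opposite signs. The brighter differed by -0.21 (SE 0.08, limma adjusted p = 0.21) and the dimmer, detected in 8 of 9 mice, by 0.25 (SE 0.11, adjusted p = 0.27). All 3 tested probes of Slc29a4 were lower in the Tlx overexpressing mice, by -0.60, -0.38 and -0.25 on the log2 scale, and none passed the threshold.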
